A study of Mus musculus with 12 samples.

Results

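Integrins, laminins and nidogens form the attachment layer between a fibroblast and its matrix. The genes described here were the 39 of 54352 symbols in the count table whose names are those of an integrin alpha chain (18 genes), an integrin beta chain (8), a laminin chain (11) or a nidogen (2), taken by name alone. RNA was measured in 12 libraries of cultured adventitial fibroblasts from wild-type C57Bl/6 mice, labelled as 14 weeks of age, with 3 libraries in each of 4 groups. Fibroblasts of the ascending aorta were kept without TGFβ (Asc-control) or given 10 ng/mL of it for 48 h (Asc-TGFβ), and fibroblasts of the descending aorta were kept (Desc-control) or treated (Desc-TGFβ) in the same way. The cells grew out of minced adventitia in serum and were passaged before treatment, so they are cultured outgrowths and not cells taken straight from the vessel wall, and no gene was deleted or marked in any group. The labels do not say whether the 3 libraries of a group came from separate animals, so the p-values measure the spread between these libraries, which may be technical. The comparisons asked how TGFβ changed these genes at each site, how the sites differed with and without TGFβ, and whether the response to TGFβ differed between sites.

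An integrin is a pair of an alpha and a beta chain that spans the plasma membrane, binds matrix outside the cell and connects to actin inside it. The alpha chain largely sets the ligand: some alpha chains bind collagen, some bind laminin, and others bind fibronectin, vitronectin and further proteins through an arginine-glycine-aspartate (RGD) motif. Itgb1 is the shared partner of most alpha chains, whereas a leukocyte-restricted set of chains pairs with Itgb2 or Itgb7. Laminins are cross-shaped trimers of one alpha, one beta and one gamma chain that assemble into the sheet of the basement membrane, and nidogens tie that sheet to the collagen IV network. Several RGD-binding integrins that contain Itgav also bind the latent form of TGFβ.

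Each library held 16250126 to 23892943 counts assigned to genes. Desc-control replicate 3 stood apart from the others: it had counts in 13031 genes, against 19337 to 20931 in the other 11 libraries, and 11.02% of its counts were mitochondrial, against 0.703% to 1.03%. It had counts for 28 of the 39 genes, against 36 to 38 elsewhere, and values without it are also given. The 7 fibroblast markers (Col1a1, Col1a2, Dcn, Lum, Pdgfra, Dpt and Thy1) had counts in every library and summed to 10997 to 23875 normalized CPM (counts scaled to library size with TMM factors over the 12 libraries) in each. Most of that sum is collagen: in ascending cells Col1a1 and Col1a2 rose with TGFβ and the other 5 fell, with log2 fold changes from -2.95 (Lum, -1.56 without Asc-control replicate 2) to -0.91 (Thy1). Of 6 smooth muscle markers 5 rose with TGFβ in ascending cells (Acta2 by 1.72 and Cnn1 by 1.94 on the log2 scale) and Myh11 fell, and in descending cells 2 rose (all 6 without Desc-control replicate 3). They summed to 1577 to 1684 CPM in Asc-control, 5114 to 5191 in Asc-TGFβ, 2479 to 2594 in Desc-control and 7992 to 8429 in Desc-TGFβ. The 6 endothelial markers summed to 24.1 to 26.8 CPM in Asc-control and 4.70 to 5.73 in Asc-TGFβ, and to 23.5 to 26.1 in Desc-control and 9.29 to 11.2 in Desc-TGFβ, most of it Tek, while Tie1 had no count and Pecam1 and Cdh5 at most 6. The 4 Schwann cell markers summed to 21.4 to 25.9 CPM in Asc-control, 14.9 to 15.7 in Asc-TGFβ, 14.7 to 24.3 in Desc-control and 10.8 to 12.2 in Desc-TGFβ. Sox10 among them had 36 to 59 counts in the ascending and none in the 6 descending libraries, while S100b had a site difference of -0.18 under TGFβ (adjusted p = 0.216). The 3 cardiomyocyte markers, with Myh6 at 0 counts, summed to 5.84 to 7.73 CPM in Asc-control, 3.27 to 3.70 in Asc-TGFβ, 0.395 to 1.38 in Desc-control and 1.03 to 1.44 in Desc-TGFβ. Epithelial markers summed to at most 0.109 CPM, and those of macrophages and mesothelium are given further on. The part of these marker differences in the results was not tested. In bulk RNA, a change in the number of cells of one type and a change in RNA per cell cannot be told apart.

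Levels were compared between genes per kilobase of exon. Itgb1 was the most abundant integrin chain, with 493 ± 8.36 CPM per kb in Asc-control (mean ± SD, n = 3), 769 ± 7.54 in Asc-TGFβ, 536 ± 127 in Desc-control (462.2 without replicate 3) and 810.2 ± 0.985 in Desc-TGFβ. It made up 82.4% ± 0.652 of the summed beta chain level in Asc-control and 76.7% ± 0.317 in Asc-TGFβ, with Itgb5 supplying most of the rest. Among the alpha chains Itgav had 35.2% ± 1.41 of the summed alpha chain level in Asc-control and 41.0% ± 7.44 in Desc-control, and Itga5 32.3% ± 2.09 and 32.0% ± 9.79. The order in Desc-control turned without replicate 3, with 37.6% for Itga5 and 36.8% for Itgav. Itga5 led with TGFβ, with 42.6% ± 0.316 in Asc-TGFβ and 38.3% ± 1.69 in Desc-TGFβ. In both control groups the shares of Itgav and Itga5 did not differ beyond their spread, whereas Itga5 exceeded Itgav in both treated groups. With the longest transcript as the length, Itgav was above Itga5 in Asc-control (55.7 against 37.4 CPM per kb) and Desc-control (74.3 against 42.2, and 65.6 against 49.3 without replicate 3), and Itga5 stayed above in the treated groups. Itga11 held 6.496% ± 0.769 in Asc-control and 6.499% ± 1.55 in Desc-control (7.39% without replicate 3), and 18.5% ± 0.754 and 28.6% ± 1.42 in the treated groups.

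Among the laminin alpha chains, Lama4 was the most abundant in Asc-control, with 40.5% ± 0.261 of the summed level, followed by Lama5 with 33.4% ± 0.886 and Lama2 with 25.97% ± 0.604. In Asc-TGFβ the order was Lama2 (46.7% ± 0.574), Lama4 (29.4% ± 0.153) and Lama5 (23.5% ± 0.777). The descending cells held little Lama5, 9.63% ± 4.48 in Desc-control (12.2% without replicate 3) and 7.36% ± 0.355 in Desc-TGFβ, and in Desc-TGFβ Lama2 reached 69.3% ± 1.37. With the longest transcript in place of all exons as the length, Lama2 instead of Lama5 came second in Asc-control. Lamb2 and Lamb1 made up nearly all of the laminin beta chain level, and Lamc1, the usual gamma chain, stood at 58.5 ± 2.87 CPM per kb in Asc-control and 65.1 ± 4.62 in Desc-TGFβ. Nid1 stood at 239 ± 3.67 CPM per kb in Asc-control and 288 ± 24.7 in Desc-control, far above Nid2 at 35.0 ± 2.28 and 21.9 ± 5.796. With replicate 3 left out, Desc-control stood at 302.4 for Nid1 and 25.2 for Nid2.

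**Figure D1:**
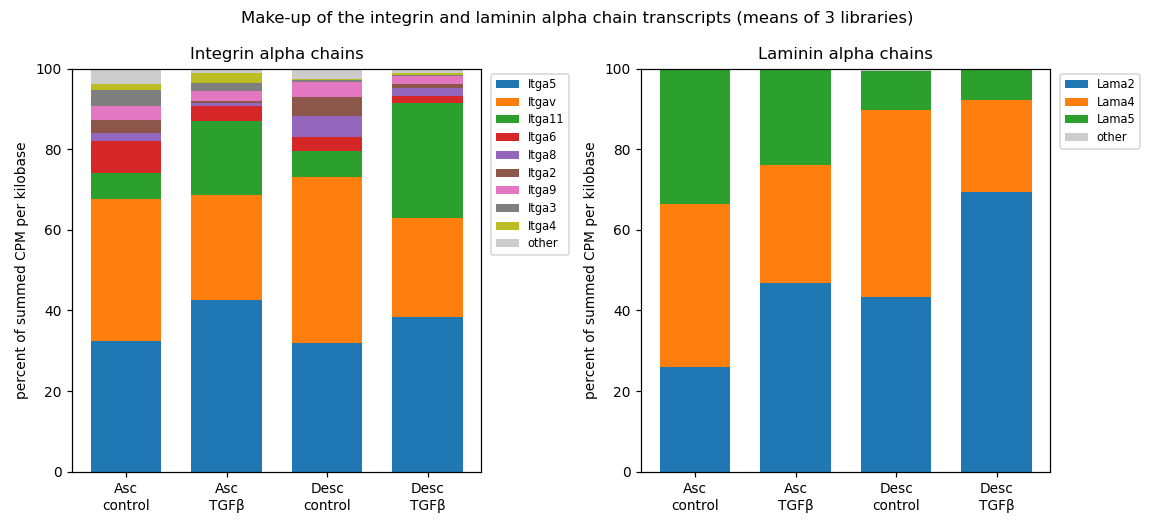
Composition of the integrin alpha chains (one panel) and the laminin alpha chains (the other) in the 4 groups, as percent of the summed CPM per kb, each bar a mean of 3 libraries, Desc-control replicate 3 included. The Itga11 segment is 6.496% of the integrin alpha bar in Asc-control, 6.499% in Desc-control, 18.5% in Asc-TGFβ and 28.6% in Desc-TGFβ, and the Lama5 segment is wide in the ascending bars and narrow in the descending ones.

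Several members were at or near the limit of detection, taken as 3 counts in a library (0.119 to 0.203 CPM). Itgad and Lamc3 were at or under 3 counts in 11 of the 12 libraries, Itgae in 10, Itgam in 9, Itgax in 8 and Itgb7 in 7. Lama3 was there in 4 libraries and never exceeded 32 counts. These genes encode leukocyte integrin chains, apart from Lama3 and Lamc3, which encode laminin chains best known from epithelia and from nerve and skin. A low count at this depth does not show absence. Of the 50-base stretches in the exons of Itgam 66.3%, and of Itga10 30.6%, also occur in another annotated gene, so the counting may have split or dropped their reads; for the genes given below in every library this share is at most 8.02% (Itgax, with Itgad).

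TGFβ changed most of the measured members in ascending fibroblasts. Of the 32 that passed the filter on low counts, 26 passed the test at an adjusted p of 0.05 (81.2%), 12 higher and 14 lower, where 55.8% of all 13917 genes tested were called (28.2% higher and 27.6% lower). The median log2 fold change of the 32 was -0.14, against -0.0044 for all genes tested. In descending fibroblasts 8 of 32 passed (25%), 6 higher and 2 lower, against 8.07% of all genes (3.59% higher and 4.48% lower), and without Desc-control replicate 3 the count was 25 of 32 (78.1%), 14 higher and 11 lower, against 52.9% of all genes (26.6% and 26.3%). The sites share no libraries: 8 members were called in both with all libraries, all in the same direction, and 22 without Desc-control replicate 3, of which 21 kept the direction (11 higher, 10 lower) and Itga8 did not. These 22 were 84.6% of the 26 ascending calls and 88% of the 25 descending calls. The overlap over all genes was not counted, so it cannot be said whether these members differ from other genes in it. Leaving out any of the other 5 libraries of the descending comparison gave 1 or 2 calls. Fitting all 12 libraries together gave 17 calls at each site. In that fit 9 of the ascending calls ended, those of Itga3, Itga7, Itga8, Itgb2, Itgb3, Lama1, Lama5, Lamb2 and Lamc1 (adjusted p = 0.0599 to 0.719).

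**Figure D2:**
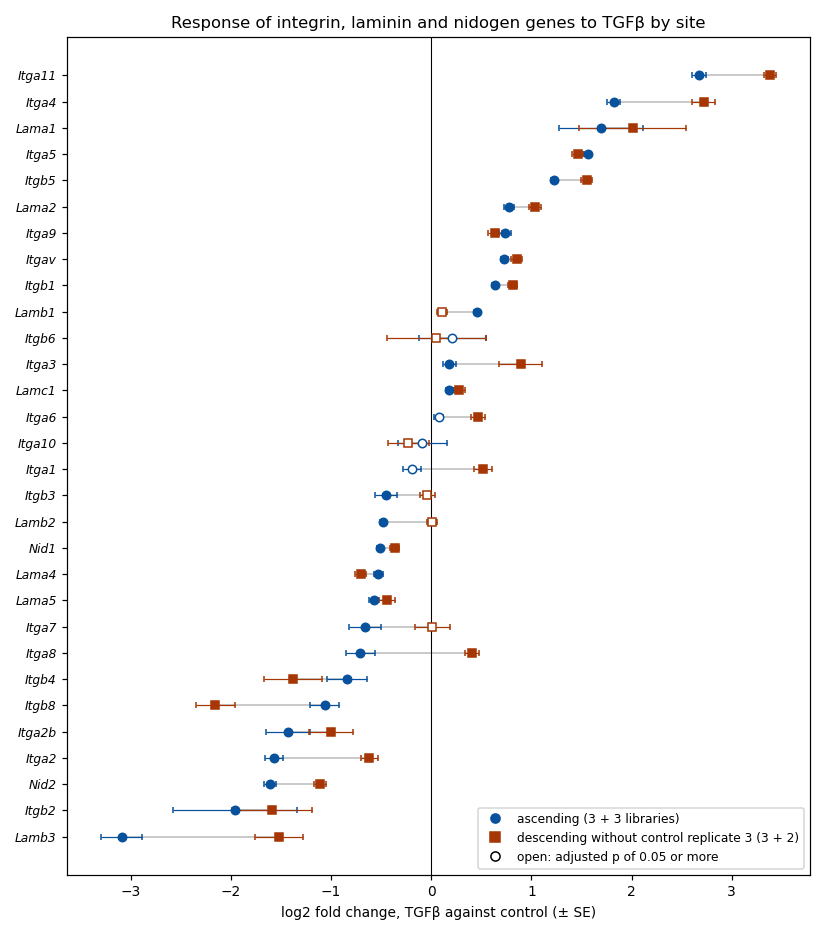
Log2 fold change of TGFβ against control (± SE) for 30 members in ascending cells (circles, 3 libraries per group) and in descending cells without Desc-control replicate 3 (squares, 3 treated and 2 control libraries); open symbols did not reach an adjusted p of 0.05. Itga11 lies farthest to the positive side at both sites, at 2.67 and 3.39, and Lamb3 is the lowest ascending point, at -3.09.

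The promoters of 4 members are shown because these genes carry the extremes of the data: Itga11 had the largest rise with TGFβ, Itga5 was the leading alpha chain of the treated cells, Lamb3 had the largest called fall in ascending cells, and Lama5 had the largest site difference among the laminins. Each runs from 250 bases before to 50 bases after the start site in the RefSeq annotation of GRCm38.p6, 5′ to 3′ on the strand of the gene, and capitals mark CAGAC (a short SMAD-binding sequence, read on the other strand as GTCTG) and GGGCGG (a GC box bound by SP1, on the other strand CCGCCC).
Itga11, chr9:62677605-62677904, plus strand: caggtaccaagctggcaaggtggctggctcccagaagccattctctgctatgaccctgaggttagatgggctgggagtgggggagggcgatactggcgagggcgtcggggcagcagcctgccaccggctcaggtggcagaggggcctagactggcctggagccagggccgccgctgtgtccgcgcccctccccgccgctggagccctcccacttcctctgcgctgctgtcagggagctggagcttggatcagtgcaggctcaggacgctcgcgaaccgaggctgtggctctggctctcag
Itga5, chr15:103366742-103367041, minus strand: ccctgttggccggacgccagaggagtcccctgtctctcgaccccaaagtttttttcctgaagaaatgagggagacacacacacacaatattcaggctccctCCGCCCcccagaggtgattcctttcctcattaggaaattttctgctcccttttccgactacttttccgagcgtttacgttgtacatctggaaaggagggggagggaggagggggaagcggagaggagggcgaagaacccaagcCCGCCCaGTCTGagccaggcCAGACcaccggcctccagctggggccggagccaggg
Lamb3, chr1:193301744-193302043, plus strand: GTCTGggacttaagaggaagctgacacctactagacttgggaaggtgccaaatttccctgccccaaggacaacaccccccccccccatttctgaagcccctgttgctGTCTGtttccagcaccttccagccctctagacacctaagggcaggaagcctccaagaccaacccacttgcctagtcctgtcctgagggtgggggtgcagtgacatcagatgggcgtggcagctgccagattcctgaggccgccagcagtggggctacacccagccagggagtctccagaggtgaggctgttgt
Lama5, chr2:180225810-180226109, minus strand: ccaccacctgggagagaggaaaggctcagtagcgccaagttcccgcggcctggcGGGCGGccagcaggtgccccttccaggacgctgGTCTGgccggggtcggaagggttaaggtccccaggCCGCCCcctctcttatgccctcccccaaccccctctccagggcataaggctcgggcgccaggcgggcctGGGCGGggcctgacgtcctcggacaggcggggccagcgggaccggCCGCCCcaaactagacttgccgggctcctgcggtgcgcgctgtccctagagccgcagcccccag

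Itga11 had neither sequence in this window, Itga5 had CAGAC at bases 2 to 6 and 15 to 19 after the start and GGGCGG ending at bases -144 and -1, Lamb3 had CAGAC in 2 places, and Lama5 had CAGAC in 1 place and GGGCGG in 4. The Lamb3 window is the closer of 2 listed promoters and lies 94295 bases inside the gene as GENCODE draws it. Over both strands, CAGAC was present in 49.6% of all 32851 promoters of this length, GGGCGG in 35.7% and TGANTCA (the AP-1 sequence) in 7.81%. Promoters were matched for 24 of the 39 genes, of which 17 held CAGAC, 12 GGGCGG and 3 TGANTCA. In the counts of genes here and below, a gene counted if any of its listed promoters held the sequence. The percentages are per single promoter, so the counts of genes cannot be set directly against them. Of the 10 matched members that rose in ascending cells 7 held CAGAC, and of the 8 that fell 5 did. A match is a run of letters and not a measured binding site.

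Among the collagen-binding alpha chains, Itga11 (chr9:62677826-62783982, plus strand, GRCm38), which pairs with Itgb1 as a receptor for fibrillar collagen, had the largest rise of any member. Replicates 1 to 3 stood at 29.5, 35.9 and 38.4 normalized CPM in Asc-control and 207, 234 and 225 in Asc-TGFβ. In descending cells they stood at 45.1, 43.7 and 29.4 in Desc-control and 443, 474 and 473 in Desc-TGFβ. Every treated library was several times above every control library, and the descending treated libraries were above the ascending ones. The rise was 6.38-fold in ascending cells (log2 fold change 2.67 ± 0.070, adjusted p = 7.08e-15) and 11.6-fold in descending cells (log2 fold change 3.54 ± 0.19, adjusted p = 0.00102; without Desc-control replicate 3, 3.39 ± 0.060, adjusted p = 1.83e-27).

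Itga2, another collagen receptor chain, moved the other way in ascending cells, from 22.01, 26.9 and 25.8 CPM to 8.30, 8.85 and 8.14 with TGFβ, with no overlap between groups (log2 fold change -1.57 ± 0.092, adjusted p = 2.48e-10). Its descending levels were 29.6, 33.1 and 59.9 without and 21.1, 20.9 and 19.1 with TGFβ, again without overlap, and replicate 3 was the highest control (log2 fold change -1.03 ± 0.30, adjusted p = 0.106; without that library -0.62 ± 0.085, adjusted p = 4.04e-07). Itga1 had log2 fold changes of -0.19 (adjusted p = 0.0773) in ascending cells and 0.23 (adjusted p = 0.587) in descending cells, and without Desc-control replicate 3 it rose in the latter by 0.51 ± 0.088 (adjusted p = 1.32e-05). Itga10, a chain known mainly from cartilage, was low in all groups and passed no test.

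The RGD-binding chains were split. Of 8 tested in ascending cells, 3 rose and 4 fell, against 28.2% and 27.6% of all genes, and in descending cells 2 rose and 1 fell, against 3.59% and 4.48% (4 and 2 without Desc-control replicate 3, against 26.6% and 26.3%). The 3 that rose in ascending cells were Itga5, Itgav and Itgb5. Itga5 (chr15:103344286-103366763, minus strand), the alpha chain of the main fibronectin receptor, went from 174, 164 and 158 CPM in Asc-control to 480.2, 494 and 500.4 in Asc-TGFβ, and from 222, 214 and 124 in Desc-control to 609, 548 and 634 in Desc-TGFβ. No treated library overlapped a control at either site, and the lowest control was Desc-control replicate 3. The rises were 2.95-fold (log2 fold change 1.56 ± 0.036, adjusted p = 1.77e-15) and 3.17-fold (log2 fold change 1.67 ± 0.23, adjusted p = 0.0124; without that library, 1.46 ± 0.057, adjusted p = 2.91e-19).

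Itgb5, which pairs with Itgav as a vitronectin receptor (chr16:33829665-33949338, plus strand), stood at 354, 347 and 345 CPM in Asc-control and 813, 825 and 817 in Asc-TGFβ. Its descending levels were 245, 236 and 113 in Desc-control and 691, 736 and 683 in Desc-TGFβ. All treated libraries were above all controls, and the ascending controls were above the descending ones. The log2 fold change was 1.22 ± 0.027 in ascending cells (adjusted p = 1.02e-15) and 1.82 ± 0.29 in descending cells (adjusted p = 0.019; without Desc-control replicate 3, 1.55 ± 0.051, adjusted p = 5.47e-21). Itgav itself (chr2:83724397-83806916, plus strand) rose less, from 377, 386 and 416 to 633, 667 and 667 CPM in ascending cells (log2 fold change 0.73 ± 0.036, adjusted p = 2.53e-11). In descending cells it stood at 452, 474 and 647 without and 818, 804 and 879.8 with TGFβ, where replicate 3 was the highest control and the groups did not overlap (log2 fold change 0.65 ± 0.18, adjusted p = 0.0907; without it 0.85 ± 0.052, adjusted p = 1.44e-14).

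The RGD-binding chains that fell in ascending cells were Itgb8, Itga2b, Itga8 and Itgb3. Itgb8, which with Itgav binds latent TGFβ, went from 9.08, 12.3 and 12.0 CPM to 5.43, 4.59 and 6.00 in ascending cells and from 8.69, 8.71 and 6.02 to 1.64, 2.67 and 1.57 in descending cells. All treated libraries were below all controls of their site, and the descending treated libraries were the lowest. The falls were 2.09-fold (log2 fold change -1.07 ± 0.15, adjusted p = 1.07e-05) and 4.03-fold (log2 fold change -2.01 ± 0.32, adjusted p = 0.0188; without Desc-control replicate 3, -2.16 ± 0.19, adjusted p = 1.06e-10). Itga2b, best known as the platelet fibrinogen receptor chain, was at 3.68, 3.54 and 3.50 CPM in Asc-control and 1.04, 1.47 and 1.46 in Asc-TGFβ (log2 fold change -1.43 ± 0.22, adjusted p = 3.3e-05). Of the platelet markers, Gp9 and Ppbp had 0 counts in all 12 libraries, Gp1bb at most 2 and Pf4 at most 9. In descending cells Itga2b stood at 5.21, 3.49 and 2.84 without and 1.95, 2.29 and 2.28 with TGFβ (log2 fold change -0.84 ± 0.34, adjusted p = 0.205; without Desc-control replicate 3, -1.002 ± 0.22, adjusted p = 0.000323). Itgb6, an epithelial chain, passed no test.

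Itga8 (chr2:12106632-12301922, minus strand), a receptor chain for nephronectin that is common in smooth muscle and other mesenchymal cells, stood at 11.5, 19.4 and 14.6 CPM in Asc-control and 9.55, 8.76 and 9.60 in Asc-TGFβ. In descending cells it was at 36.3, 37.2 and 66.8 without and 46.2, 49.4 and 49.8 with TGFβ. The ascending groups did not overlap, and the descending ones did only through Desc-control replicate 3, which was the highest library. It fell in ascending cells (log2 fold change -0.71 ± 0.15, adjusted p = 0.000595), had a log2 fold change of 0.03 ± 0.28 in descending cells (adjusted p = 0.966), and rose there without replicate 3 (0.40 ± 0.070, adjusted p = 1.46e-05). Of the 6 smooth muscle markers, 5 rose in ascending cells. The other, Myh11, was at -0.63 ± 0.10 in ascending cells (adjusted p = 5.25e-05), 0.375 ± 0.29 in descending cells (adjusted p = 0.486) and 0.77 ± 0.070 there without replicate 3 (adjusted p = 1.4e-10), and its part in the Itga8 values was not tested. Itgb3, the other vitronectin-receptor beta chain, was at 18.2, 21.2 and 18.0 CPM in Asc-control and 11.1, 15.3 and 15.6 in Asc-TGFβ, without overlap (log2 fold change -0.45 ± 0.11, adjusted p = 0.00223). In descending cells it was at 29.6, 30.7 and 24.8 without and 28.3, 28.9 and 30.7 with TGFβ, with overlap (log2 fold change 0.03 ± 0.13, adjusted p = 0.921; without replicate 3, -0.04 ± 0.078, adjusted p = 0.712).

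**Figure D3:**
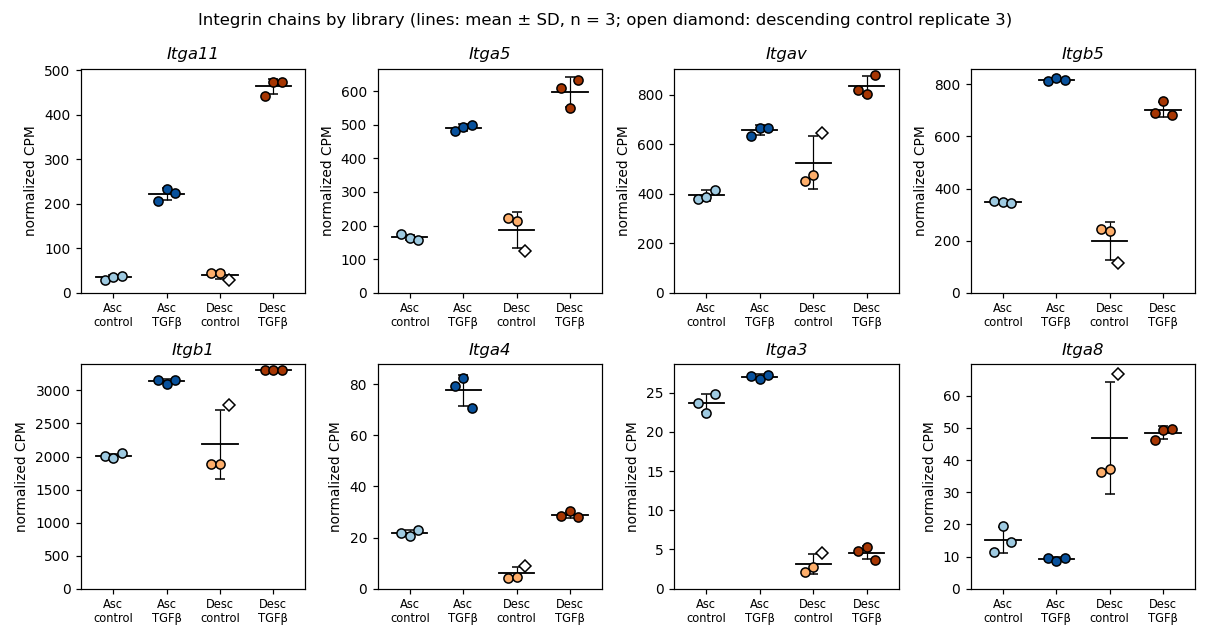
Normalized CPM of 8 integrin genes in each library (points), with the group mean and SD (lines) over 3 libraries; the open diamond is Desc-control replicate 3. Itga11, Itga5 and Itgb5 are higher in every treated library than in every control of the same site. Itga3 is higher in ascending than descending cells, Itga4 is so only between groups of the same treatment, and Itga8 is higher in descending cells.

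Itga4 and Itga9, a related pair of alpha chains with ligands such as fibronectin, VCAM1, tenascin-C and osteopontin, rose at both sites. Itga4 (chr2:79255426-79333123, plus strand) stood at 21.7, 20.6 and 23.1 CPM in Asc-control, 79.5, 82.6 and 70.8 in Asc-TGFβ, 4.15, 4.65 and 9.06 in Desc-control and 28.6, 30.3 and 27.9 in Desc-TGFβ. The groups did not overlap, in the rising order Desc-control, Asc-control, Desc-TGFβ and Asc-TGFβ. It rose 3.53-fold in ascending cells (log2 fold change 1.82 ± 0.065, adjusted p = 3.55e-13) and 4.79-fold in descending cells (log2 fold change 2.26 ± 0.34, adjusted p = 0.0161; without Desc-control replicate 3, 2.72 ± 0.11, adjusted p = 1.52e-18). Itga9 rose by 0.73 ± 0.059 (adjusted p = 1.66e-08) and 0.57 ± 0.12 (adjusted p = 0.0481) on the log2 scale, and without that library the descending value was 0.63 ± 0.074 (adjusted p = 1.67e-08). With all libraries that call ended with DESeq2 size factors (adjusted p = 0.0528), with no filter (adjusted p = 0.105) and with a replicate block (adjusted p = 0.2).

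Itgb1 (chr8:128685654-128733200, plus strand) stood at 2002, 1981 and 2048 CPM in Asc-control and 3162, 3104 and 3152 in Asc-TGFβ. Its descending levels were 1892, 1880.3 and 2786 without and 3305, 3311 and 3303 with TGFβ. Treated libraries were above controls at both sites, and Desc-control replicate 3 was far above the other descending controls. It rose 1.55-fold in ascending cells (log2 fold change 0.63 ± 0.024, adjusted p = 5.91e-13), and in descending cells the call by edgeR's pairwise test came with replicate 3 left out: the log2 fold change was 0.57 ± 0.19 with it (adjusted p = 0.139) and 0.81 ± 0.045 without it (adjusted p = 1.75e-15). In the fit of all 12 libraries it was called as well (0.58, adjusted p = 0.0116).

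Of 4 laminin-binding chains tested in ascending cells, 1 rose (Itga3, 0.18 ± 0.061, adjusted p = 0.0187) and 2 fell, against 28.2% and 27.6% of all genes. The Itga3 call ended with DESeq2 (adjusted p = 0.0726), without Asc-control replicate 2 (adjusted p = 0.103) and in the fit of all 12 libraries (adjusted p = 0.719). Itga7, the muscle laminin receptor chain, fell by 0.66 ± 0.16 (adjusted p = 0.00243). Itgb4, which pairs with Itga6 in the hemidesmosomes of epithelia, was low throughout, at 4.02, 3.94 and 4.32 CPM in Asc-control, 2.87, 1.94 and 2.10 in Asc-TGFβ, 2.61, 2.46 and 3.31 in Desc-control and 0.923, 1.03 and 0.949 in Desc-TGFβ. Treated libraries were below the controls at both sites (log2 fold change -0.84 ± 0.20, adjusted p = 0.00187 in ascending cells; -1.54 ± 0.36, adjusted p = 0.0569, in descending cells; -1.38 ± 0.29, adjusted p = 0.000168, without Desc-control replicate 3). With all libraries none of the 4 passed edgeR's test in descending cells. Of the 4, 2 had an unadjusted p under 0.05, a share not counted over all genes. In descending cells DESeq2 called Itga6 (adjusted p = 0.045) and Itgb4 (adjusted p = 0.00162). Without Desc-control replicate 3, Itga3 (0.89 ± 0.21, adjusted p = 0.000815) and Itga6 (0.47 ± 0.072, adjusted p = 2.21e-06) rose there, Itgb4 fell, and Itga7 was at 0.01 (adjusted p = 0.962).

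Of 4 laminin alpha chains tested in ascending cells, Lama1 and Lama2 rose with TGFβ and Lama4 and Lama5 fell, against 28.2% and 27.6% of all genes. Lama2 (chr10:26980036-27619758, minus strand), the alpha chain of the laminin around muscle and nerve, went from 128, 151 and 139 CPM in Asc-control to 235, 251 and 236 in Asc-TGFβ (log2 fold change 0.78 ± 0.050, adjusted p = 7.28e-10), and from 139.7, 127 and 156 in Desc-control to 248, 276 and 291 in Desc-TGFβ (log2 fold change 0.93 ± 0.14, adjusted p = 0.015; without Desc-control replicate 3, 1.03 ± 0.060, adjusted p = 5.01e-15). The groups did not overlap at either site. Lama4 (chr10:38965515-39110188, plus strand), a chain of vessel and mesenchymal laminins, ran from 149.95, 173 and 158 to 109.96, 116 and 110.2 CPM in ascending cells and from 107, 109 and 117 to 62.0, 70.7 and 66.1 in descending cells. Every treated library lay below every control of its site (log2 fold change -0.53 ± 0.048, adjusted p = 7.36e-08; -0.77 ± 0.12, adjusted p = 0.017, in descending cells; -0.71 ± 0.059, adjusted p = 1.87e-11, without Desc-control replicate 3).

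Lama5 (chr2:180176373-180225859, minus strand), the broadly used alpha chain of adult epithelial and endothelial basement membranes, stood at 121, 134 and 119.5 CPM in Asc-control and 84.5, 83.6 and 85.2 in Asc-TGFβ, and at 28.3, 26.3 and 10.3 in Desc-control and 19.4, 20.7 and 20.0 in Desc-TGFβ. The ascending groups did not overlap (log2 fold change -0.58 ± 0.047, adjusted p = 1.78e-08), whereas the descending controls lay on both sides of the treated libraries with replicate 3 the lowest (log2 fold change -0.12 ± 0.37, adjusted p = 0.872; without it -0.44 ± 0.084, adjusted p = 4.81e-05). Lama1, a chain of early embryonic laminin, had at most 21 counts in a library and was at 0.173, 0.249 and 0.437 CPM in Asc-control, 1.04, 0.994 and 0.780 in Asc-TGFβ, 0.158, 0.259 and 1.015 in Desc-control and 0.923, 0.817 and 0.807 in Desc-TGFβ. The ascending groups did not overlap and the descending controls included replicate 3 above all treated libraries (log2 fold change 1.70 ± 0.42, adjusted p = 0.00255; 0.84 ± 0.83, adjusted p = 0.591, with all libraries and 2.01 ± 0.53, adjusted p = 0.00211, without it). Lama3, an epithelial chain, had 32, 18 and 10 counts in Desc-control, 4, 2 and 0 in Desc-TGFβ, 5, 10 and 2 in Asc-control and 3, 9 and 4 in Asc-TGFβ. It was highest in the descending controls and close to the detection limit in the other groups (log2 fold change -3.08 ± 1.03, adjusted p = 0.139; without replicate 3, -3.25 ± 0.63, adjusted p = 6.94e-05), and it did not pass the filter in ascending cells. Without TGFβ and without that library it was lower in ascending than descending cells (-1.89 ± 0.55, adjusted p = 0.0178).

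Lamb3 (chr1:193207699-193343878, plus strand), the beta chain of the epithelial anchoring laminin, had the largest called fall in ascending cells, from 9.69, 11.5 and 10.6 CPM to 0.783, 1.23 and 1.71. In descending cells it stood at 3.79, 4.05 and 0 without and 1.33, 1.42 and 1.33 with TGFβ. The ascending controls were above every other library, and Desc-control replicate 3 had no count. The fall was 8.53-fold in ascending cells (log2 fold change -3.09 ± 0.20, adjusted p = 1.17e-09), and in descending cells the log2 fold change was -0.96 ± 1.26 (adjusted p = 0.692) with that library and -1.52 ± 0.24 (adjusted p = 3.49e-06) without it.

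The abundant beta chains moved in opposite directions in ascending cells. Lamb1 (chr12:31265234-31329644, plus strand), the widespread beta chain, rose by 0.46 ± 0.030 (adjusted p = 1.09e-09). Lamb2 (chr9:108479736-108490530, plus strand), the beta chain of vessel, kidney and synaptic laminins, was at 504, 527 and 499 CPM in Asc-control and 369.5, 371 and 364 in Asc-TGFβ, and at 482, 455 and 262 in Desc-control and 454, 492 and 462 in Desc-TGFβ. It fell in ascending cells, where the groups did not overlap (log2 fold change -0.48 ± 0.030, adjusted p = 6.07e-10), and in descending cells the groups overlapped (log2 fold change 0.22 ± 0.23, adjusted p = 0.615; without replicate 3, 0.01 ± 0.049, adjusted p = 0.939). Lamc1 (chr1:153218922-153332786, minus strand) was at 462, 509 and 481 CPM in Asc-control, 556, 565 and 534 in Asc-TGFβ, 439, 451 and 565 in Desc-control and 502, 579 and 536 in Desc-TGFβ. It rose by 0.18 ± 0.036 in ascending cells (adjusted p = 0.000412), and the descending groups overlapped through Desc-control replicate 3 (log2 fold change 0.13 ± 0.15, adjusted p = 0.651; without it, 0.28 ± 0.053, adjusted p = 5.83e-05).

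Both nidogens fell in ascending cells. Nid1 (chr13:13437551-13512269, plus strand) went from 1641, 1690.1 and 1655 CPM to 1159.7, 1183 and 1177 (log2 fold change -0.51 ± 0.025, adjusted p = 1.79e-11), and in descending cells it stood at 2078, 2121 and 1805 without and 1574, 1632 and 1675 with TGFβ (log2 fold change -0.32 ± 0.10, adjusted p = 0.136; without Desc-control replicate 3, -0.37 ± 0.046, adjusted p = 8.53e-08). Nid2 (chr14:19751265-19811787, plus strand) went from 173, 195 and 175 CPM to 53.3, 61.5 and 64.3, a fall of 3.05-fold (log2 fold change -1.61 ± 0.060, adjusted p = 6.21e-13). Its descending levels were 134, 127 and 79.0 without and 55.5, 64.1 and 61.3 with TGFβ (log2 fold change -0.93 ± 0.21, adjusted p = 0.0549; without replicate 3, -1.11 ± 0.059, adjusted p = 5.64e-16). For both genes every treated library was below every control of its site, and the treated Nid2 levels of the sites overlapped.

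**Figure D4:**
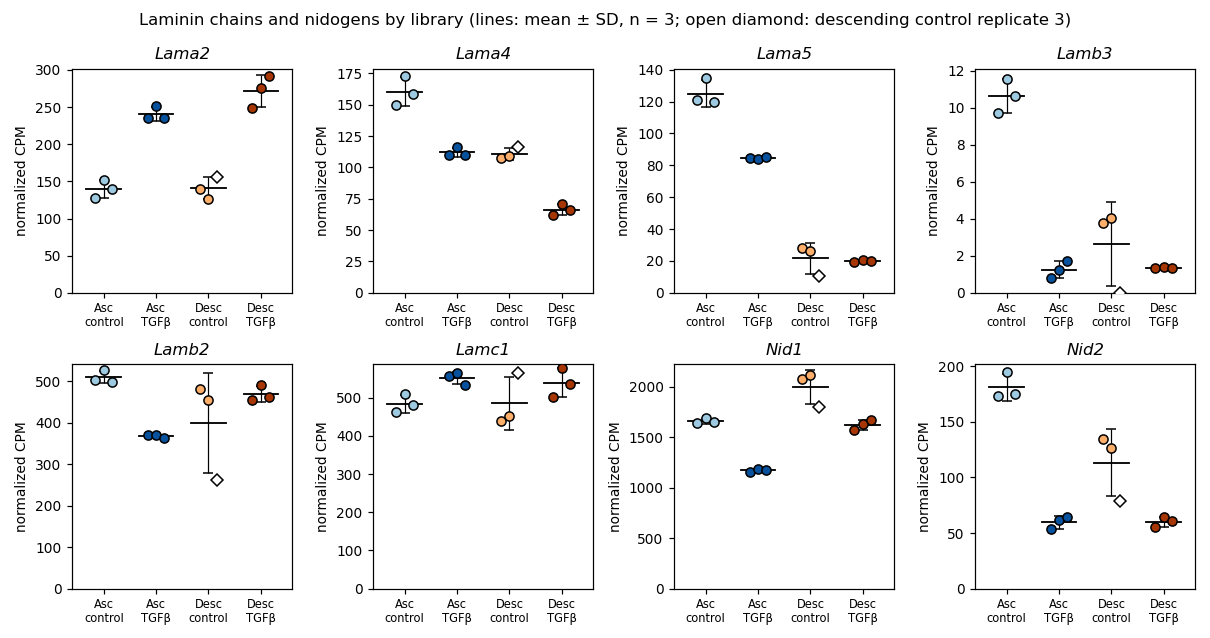
Normalized CPM of 6 laminin genes and both nidogens in each library (points), with the group mean and SD (lines) over 3 libraries; the open diamond is Desc-control replicate 3. Lama2 is higher and Lama4 and Nid2 are lower in every treated library than in every control of the same site, and Lama5 is higher in all 6 ascending than in all 6 descending libraries.

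Without TGFβ, the sites differed in 3 of the 32 members tested (9.38%), all higher in ascending cells, against 2.65% of all 14090 genes (1.19% higher and 1.47% lower). Without Desc-control replicate 3 the count was 24 of 33 (72.7%), 15 higher and 9 lower in ascending cells, against 31.6% of all genes (16.4% and 15.2%), and leaving out any of the other 5 libraries gave 0 or 1 calls. The 3 were the laminin receptor chains Itga3 and Itga6 and the laminin chain Lama5. Under TGFβ, a comparison on separate libraries, 21 of 31 members differed (67.7%), 10 higher and 11 lower in ascending cells, against 36.3% of all 13678 genes (18.1% and 18.2%). Of these 21, 17 were also called without TGFβ when Desc-control replicate 3 was left out, 15 in the same direction (70.8% of the 24 and 81% of the 21 calls are shared), and Lamb1 and Lamb2 had opposite signs. The overlap of the site differences was not counted over all genes either. Fitting all 12 libraries together gave 10 calls without and 12 with TGFβ, and those of Itga2b, Itga5, Itga7, Itgav, Itgb2, Itgb5, Lama2, Lamb1 and Lamb2 under TGFβ ended.

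Itga3 (chr11:95044474-95076801, minus strand) binds laminins that contain Lama5 or Lama3 and stood at 23.7, 22.4 and 24.8 CPM in Asc-control and 27.1, 26.7 and 27.3 in Asc-TGFβ. In descending cells it was at 2.17, 2.76 and 4.60 without and 4.77, 5.28 and 3.70 with TGFβ. Every ascending library was several times above every descending library. The difference was 7.48-fold without TGFβ (log2 fold change 2.90 ± 0.33, adjusted p = 0.012; without Desc-control replicate 3, 3.29 ± 0.13, adjusted p = 2.49e-10) and 5.96-fold with it (log2 fold change 2.58 ± 0.11, adjusted p = 8.3e-18). Itga6 (chr2:71745616-71858416, plus strand), a general laminin receptor chain, was at 75.6, 73.4 and 72.4 CPM in Asc-control, 80.3, 74.9 and 79.6 in Asc-TGFβ, 34.7, 34.6 and 38.8 in Desc-control and 45.1, 47.7 and 50.6 in Desc-TGFβ. Here too the sites did not overlap (log2 fold change 1.04 ± 0.12, adjusted p = 0.0123 without TGFβ; 1.11 ± 0.057, adjusted p = 3.47e-09, also without Desc-control replicate 3; 0.72 ± 0.052, adjusted p = 3.1e-12, with TGFβ).

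Lama5, whose values are given above, was 5.81-fold higher in ascending cells without TGFβ (log2 fold change 2.54 ± 0.38, adjusted p = 0.0298; without Desc-control replicate 3, 2.22 ± 0.069, adjusted p = 2.13e-11) and 4.23-fold higher with it (log2 fold change 2.08 ± 0.056, adjusted p = 3.09e-22). Lama4 was higher by 0.77 ± 0.048 under TGFβ (adjusted p = 1.24e-13) and had a difference of 0.53 ± 0.12 without it (adjusted p = 0.0974; 3.71e-06 without Desc-control replicate 3). Itga4 was 2.70-fold higher in ascending cells under TGFβ (log2 fold change 1.43 ± 0.061, adjusted p = 1.29e-17), with 1.88 ± 0.35 in control cells (adjusted p = 0.0579) and 2.33 ± 0.11 without replicate 3 (adjusted p = 2.21e-09). Itgb8 and Itgb4 were higher in ascending cells under TGFβ, by 1.46 ± 0.21 (adjusted p = 1.12e-06) and 1.25 ± 0.28 (adjusted p = 0.000689). In control cells edgeR's pairwise test did not call Itgb8 with or without Desc-control replicate 3. It called Itgb4 higher in ascending control cells without that library and not with it.

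The largest excess in descending cells was that of Itga8, 5.18-fold under TGFβ (log2 fold change -2.37 ± 0.075, adjusted p = 1.45e-20). Without TGFβ its difference was -1.63 ± 0.34 (adjusted p = 0.0809; without Desc-control replicate 3, -1.26 ± 0.14, adjusted p = 7.91e-06). Itga11, Itga2 and Itgb3 were also lower in ascending than descending cells under TGFβ, with differences of -1.05 ± 0.043 (adjusted p = 4.64e-18), -1.26 ± 0.10 (adjusted p = 6.38e-12) and -1.05 ± 0.093 (adjusted p = 2.08e-10) on the log2 scale. In control cells the Itga11 site difference passed only with Desc-control replicate 3 left out (log2 fold change -0.18 ± 0.20, adjusted p = 0.685 with it, and -0.34 ± 0.087, adjusted p = 0.00903, without it). By edgeR's pairwise test Itga2 and Itgb3 were likewise called lower in ascending control cells without that library and not with it. Nid1 was lower by 0.46 ± 0.035 under TGFβ (adjusted p = 4.9e-12), while Nid2 had a difference of -0.0038 ± 0.061 (adjusted p = 0.973).

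Mesothelial markers differed between sites. Upk3b, a gene of mesothelial cells, had 310 to 804 counts in the ascending and 0 to 37 in the descending libraries, and Msln 5 to 82 and 0 to 4, but Krt19 was higher in descending cells, with 205 to 303 counts against 66 to 96 apart from Desc-control replicate 3 at 100, and Wt1 never exceeded 1 count. The 4 markers summed to 32.8 to 42.5 CPM in Asc-control, 19.7 to 26.5 in Asc-TGFβ, 6.76 to 13.1 in Desc-control and 12.3 to 14.0 in Desc-TGFβ. Their part in the site differences of Lama5, Itga3 and the other members was not tested.

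Whether the response to TGFβ differed between sites was tested as an interaction over all 12 libraries. No member passed edgeR's test among 33, where 0.806% of all 14637 genes did. An unadjusted p under 0.05 was found for 8 members, a share not counted over all genes. DESeq2 called 2 members, Itga11 and Lamb1. Without Desc-control replicate 3, 17 of 34 members passed (50%), 3 with the larger value in ascending cells and 14 with the smaller, against 13.5% of all 15013 genes (6.07% and 7.4%), and no member passed when any of the other 11 libraries was left out instead. The median standard error of the interaction term over all genes tested was 0.35 with that library and 0.14 without it.

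In that fit of 11 libraries the difference is the ascending minus the descending log2 fold change. Itga11 rose less in ascending cells (-0.71 ± 0.10, adjusted p = 7.55e-06), as did Itga4 (-0.90 ± 0.13, adjusted p = 2.61e-05) and Itgb5 (-0.33 ± 0.052, adjusted p = 6.7e-05). Lamb3 fell more in ascending cells (-1.57 ± 0.31, adjusted p = 0.00092), and so did Itga2 (-0.94 ± 0.13, adjusted p = 8.34e-06) and Nid2 (-0.49 ± 0.091, adjusted p = 0.000378). Itga8 went in opposite directions at the sites (-1.10 ± 0.16, adjusted p = 2.74e-05).

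Itgb8 fell less in ascending cells (1.10 ± 0.25, adjusted p = 0.00393). Lamb1 had a difference of 0.35 ± 0.054 (adjusted p = 4.82e-05) and Lamb2 one of -0.48 ± 0.055 (adjusted p = 6.92e-07). For Itga5, the difference was 0.11 ± 0.068 (adjusted p = 0.369), for Itga9 0.10 ± 0.10 (adjusted p = 0.579) and for Lama4 0.18 ± 0.078 (adjusted p = 0.141), none of which passed.

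The leukocyte integrin chains were low, and Asc-control replicate 2 stood apart in their sum. Itgb2, the shared beta chain of leukocyte integrins, stood at 2.03, 16.9 and 2.19 CPM in Asc-control, 2.45, 1.70 and 1.27 in Asc-TGFβ, 1.46, 1.55 and 0 in Desc-control and 0.616, 0.599 and 0.285 in Desc-TGFβ. Itgax, its partner on dendritic cells and macrophages, was at 0.216, 4.09 and 0.535 CPM in Asc-control, 0.157, 0.331 and 0.0487 in Asc-TGFβ, 0, 0.129 and 0 in Desc-control and 0.103, 0 and 0 in Desc-TGFβ. Asc-control replicate 2 was the highest library for both. The 10 macrophage and leukocyte markers (Csf1r, Lyz2, Cd68 and others) summed to 413.6 CPM in that library, against 63.8 and 67.0 in the other Asc-control libraries, 34.5 to 50.5 in Asc-TGFβ, 31.7 to 54.6 in Desc-control and 15.1 to 29.7 in Desc-TGFβ. All 10 markers fell with TGFβ in ascending cells, and 7 of them without Asc-control replicate 2.

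Itgb2 was lower with TGFβ in ascending cells (log2 fold change -1.96 ± 0.62, adjusted p = 0.013), but without Asc-control replicate 2 the value was -0.24 (adjusted p = 0.522). Leaving out Asc-TGFβ replicate 2 or 3 also ended the call (adjusted p = 0.0549 and 0.068), as did DESeq2 (adjusted p = 0.0884). In descending cells it was at -1.03 ± 1.22 (adjusted p = 0.661), and -1.59 ± 0.40 without Desc-control replicate 3 (adjusted p = 0.00122). Between sites it was higher in ascending cells under TGFβ (log2 fold change 1.86 ± 0.37, adjusted p = 0.00016), a comparison without Asc-control replicate 2. Without TGFβ, Itgb2 had a site difference of 2.78 ± 1.38 (adjusted p = 0.48), of 2.23 ± 0.77 without Desc-control replicate 3 (adjusted p = 0.0406), and of 0.51 with Asc-control replicate 2 left out as well (adjusted p = 0.22). Itgax was tested only without Desc-control replicate 3 (4.58 ± 1.34, adjusted p = 0.0188), and it did not pass the filter with both libraries left out. The part of the macrophage markers in these values was not tested.

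**Figure D5:**
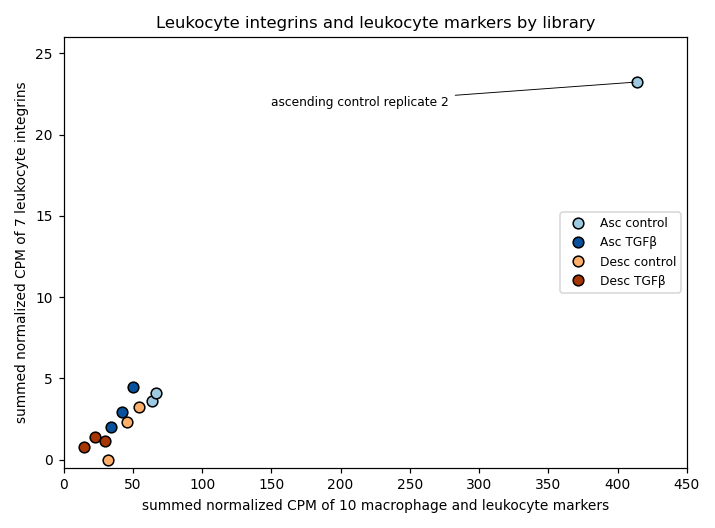
Summed normalized CPM of 7 leukocyte integrin genes against that of 10 macrophage and leukocyte markers, 1 point per library. Asc-control replicate 2 lies apart at 23.2 and 413.6 CPM, and the other libraries have at most 4.49 CPM of leukocyte integrins.

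Genes that work with these members were counted by list. Of 17 other basement membrane and laminin receptor genes tested in ascending cells, 7 rose and 7 fell with TGFβ, where 28.2% and 27.6% of all genes did. Bcam, a Lama5 receptor, fell by 1.07 ± 0.052 on the log2 scale (adjusted p = 1.95e-11), Col18a1, a collagen of vascular basement membranes, by 1.02 ± 0.049 (adjusted p = 1.68e-11) and Smoc1, a basement membrane glycoprotein, by 1.32 ± 0.071 (adjusted p = 7.35e-11). In descending cells 4 rose and 1 fell, against 3.59% and 4.48% of all genes (11 and 3 without Desc-control replicate 3, against 26.6% and 26.3%). Between control cells 5 were higher in ascending cells and none lower, against 1.19% and 1.47% of all genes: Col4a6 by 3.39 ± 0.49 (adjusted p = 0.0268), Col4a4 by 1.92 ± 0.15 (adjusted p = 0.00482), Col18a1 by 1.48 ± 0.23 (adjusted p = 0.0354), Col4a5 by 1.14 ± 0.15 (adjusted p = 0.021) and Bcam by 1.07 ± 0.15 (adjusted p = 0.0262). The Col4a genes encode collagen IV chains, and the chains from Col4a3 to Col4a6 belong to its tissue-restricted networks. With Desc-control replicate 3 left out, 11 were higher and 4 lower, against 16.4% and 15.2% of all genes, and Col4a6 was at 3.01, Col4a4 at 1.997, Col18a1 at 1.26, Col4a5 at 1.007 and Bcam at 0.95, all called. Under TGFβ 8 of 17 were higher and 6 lower, against 18.1% and 18.2% of all genes. The largest differences were those of Col4a6 (2.55), Col4a3 (1.89), Col4a4 (1.25) and Col18a1 (1.25), all higher in ascending cells.

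Of 13 other integrin ligands tested in ascending cells, 7 rose and 4 fell, against the same 28.2% and 27.6% of all genes. Postn (periostin), a ligand of Itgav integrins, rose by 2.12 ± 0.035 (adjusted p = 3.05e-17), and Thbs1 (thrombospondin 1) by 1.07 ± 0.029 (adjusted p = 9.26e-15). In descending cells 2 rose and 1 fell, against 3.59% and 4.48% of all genes (8 and 5 without Desc-control replicate 3, against 26.6% and 26.3%). In control cells 5 were lower in ascending than descending cells and none higher, against 1.47% and 1.19% of all genes, among them Edil3 at -1.85 ± 0.31 (adjusted p = 0.0401), Tnc at -1.85 ± 0.19 (adjusted p = 0.00959), Spp1 at -1.84 ± 0.19 (adjusted p = 0.00946) and Thbs1 at -1.61 ± 0.090 (adjusted p = 0.00192). Without Desc-control replicate 3, 7 were lower and 2 higher, against 15.2% and 16.4% of all genes, with Edil3 at -1.63, Tnc at -1.63, Spp1 at -1.74 and Thbs1 at -1.59, all called. Under TGFβ 7 were lower and 4 higher in ascending cells, against 18.2% and 18.1% of all genes. The 4 higher ones were Fn1 (0.25), Postn (0.28), Vcam1 (0.13) and Fbln5 (0.11). The largest differences among the lower ones were those of Edil3 (-1.54), Tnc (-1.44), Thbs1 (-1.29) and Spp1 (-1.26). With edgeR, Postn was the only gene of these 3 lists with a called interaction in all 12 libraries (2.28 ± 0.38, adjusted p = 0.0228; without Desc-control replicate 3, 1.75 ± 0.056, adjusted p = 1.34e-16), and DESeq2 called 3, 2 and 1 in the basement membrane, ligand and adhesion complex lists. Of 27 adhesion complex genes, which connect integrins to actin, 14 rose and 5 fell with TGFβ in ascending cells, against 28.2% and 27.6% of all genes. In descending cells 3 of 26 rose and none fell, against 3.59% and 4.48% (15 and 4 of 27 without Desc-control replicate 3, against 26.6% and 26.3%). Between control cells edgeR's test called none of 27, and DESeq2 called 3. Of the 27, 5 had an unadjusted p under 0.05, a share not counted over all genes. With Desc-control replicate 3 left out edgeR's test called 12 higher and 6 lower, against 16.4% and 15.2%. Under TGFβ 10 of 26 were higher and 8 lower in ascending cells, against 18.1% and 18.2%.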

How the data were processed

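RNA of cultured adventitial fibroblasts was sequenced in 12 libraries. Per the labels, the authors aligned reads to mm10 with STAR and deposited raw counts per gene symbol from featureCounts, with FastQC and DESeq2 also listed; versions, the strand setting and the treatment of reads that map to several genes are not given in the sources used here. No per-sample column was set aside. From these counts, genes passing edgeR's filterByExpr (minimum count 10, minimum total 15) were tested with edgeR 4.0.16 in R 4.3.3, by the quasi-likelihood F-test with TMM factors and Benjamini-Hochberg adjustment over all genes tested. Each pair of groups was fitted on its own 6 libraries, and the interaction of site and TGFβ on all 12. Standard errors were taken as the log2 fold change divided by the square root of F. CPM were scaled with TMM over the 12 libraries, and lengths and positions came from GENCODE vM21 (GRCm38), which matched all 39 members; values of 1 member are not reported here. All libraries carry the same batch label.

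The gene families and lists were chosen with earlier results of these data known, and members were then taken by name. Values in every library are given for members with an adjusted p under 0.05 and an absolute log2 fold change of at least 1 in any comparison, with or without Desc-control replicate 3, and for the most abundant chain of each kind per kilobase. Genes of the other lists were named from those that passed both limits, at most 4 per list and comparison, and not in every comparison. A few more were named after their values were seen. Alternatives were DESeq2 1.42.0, DESeq2 size factors, no filter, a filter of at least 10 counts in every library, 1 fit over all 12 libraries, a replicate block and leaving out each library. After the data were seen, DESeq2 without Desc-control replicate 3 and a fit without that library and Asc-control replicate 2 were added. The tests were checked on simulated counts with the same spread in every library. No simulated library was like Desc-control replicate 3, so the check does not cover comparisons that include it.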

Additional observations from a re-analysis of the deposited data

How the results depend on the processing

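The counts of called members were steadiest for TGFβ in ascending cells, with 24 to 28 calls (7146 to 7427 over all genes) when single libraries were left out, and for the site difference under TGFβ, with 20 to 21 (4340 to 4656). With all 12 libraries in one fit they were 17 members (2338 genes) and 12 members (1106 genes), against 26 and 21. The other comparisons moved with Desc-control replicate 3. TGFβ in descending cells gave 1 to 25 members (213 to 7576 genes) when single libraries were left out, 15 members (2531 genes) with DESeq2, 17 (3570) in one fit and 26 (6582) with DESeq2 and that library left out. A filter of at least 10 counts in every library gave 10 members there, and 25 members (7281 genes) for TGFβ in ascending cells. The site difference without TGFβ gave 0 to 24 members (33 to 4631 genes) when single libraries were left out, 9 (1151) with DESeq2, 10 (1545) in one fit, 22 (3804) with DESeq2 without that library and 22 (4453) without it and Asc-control replicate 2. The interaction gave 0 to 17 members (25 to 2022 genes), 2 (494) with DESeq2, 17 (1847) with DESeq2 without that library, 16 (1975) with both libraries left out, and 56 genes over all with no filter. The causes were not tested.

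Equal replicate numbers did not pair the libraries: of 18 same-numbered pairs, 0 had deviations correlated above 0.1 (-0.026 to 0.088), and 6 correlated best with their own number. With a replicate block, TGFβ in descending cells gave 1 member (95 genes), the site difference without TGFβ 0 members (0 genes) and the interaction 50 genes. In that block 10 calls of single members were lost, against 18 in one fit, 4 with DESeq2, and 1 each with DESeq2 size factors and with no filter.

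A few small values changed sign. With single libraries left out, Itga8 in descending cells ran from -0.13 to 0.40 and Lama5 from -0.44 to 0.11 on the log2 scale, the site differences without TGFβ of Itgb1 from -0.23 to 0.12 and of Lamc1 from -0.080 to 0.14, and the interaction of Itgb1 from -0.18 to 0.16. The site difference of Itgb1 without TGFβ was 0.12 without Desc-control replicate 3, 0.12 with DESeq2 without it and 0.12 with Asc-control replicate 2 left out too, and its interaction was -0.18, -0.19 and -0.19 in the same fits. The site difference of Lamc1 without TGFβ was 0.0071 with no filter, 0.0088 with a replicate block, and 0.15 and 0.10 in the added fits. Depth limits Lama1, Lama3 and the leukocyte chains, whose counts are low.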
